A study of Mus musculus with 6 samples.

Results

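Pla2g4c, Alox5, Alox5ap and Ptgs1 encode 4 proteins of the eicosanoid pathway: a phospholipase, a lipoxygenase, the protein that activates that lipoxygenase, and a cyclooxygenase. They were chosen by gene symbol, with their intensities on these same arrays known, so the Nod2-/- and WT values below describe them and test nothing. Each gene had 1 probe set with that symbol alone, giving 4 of the 28853 probe sets on the array. Gene names were available for part of the array, 1053 probe sets that the authors kept for their difference between the genotypes, and 855 of these have a single symbol.

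The samples were ileal crypt bases cut by laser from methacarn-fixed, paraffin-embedded tissue of mice of 8 weeks on the C57BL/6J background. The Nod2-/- group lacks Nod2, a sensor of bacterial peptidoglycan inside the cell, and had 3 arrays, and the WT group had 3 arrays. Neither group received a treatment, and the labels do not describe the Nod2 allele or say how many mice or crypts a capture holds. Each array, an Affymetrix MoGene 1.0 ST, was made from 100 ng of total RNA. Whether the arrays of a genotype come from separate mice is not stated, so the spread between them may be partly technical. The labels call the captured cells Paneth cells. Of 14 Paneth cell genes, Mptx1 and Pnliprp2 were named and lay above the array median on all 6 arrays, and the other 12, as well as Nod2, were not analysed here. Genes of goblet cells (Tff3), stem cells (Lgr5), enterocytes (Anpep) and fibroblasts (Sparc) did so too, so such a level does not mark Paneth cells. Their WT means were 11.08, 9.15, 9.03 and 9.13 (log2), against 6.625 for Mptx1 and 11.47 for Pnliprp2. The identity of the captured cells was not tested. Array medians lay between 34.5 and 35.4 (linear intensity) and the lowest intensity on an array was between 18.8 and 19.3, so no gene was at 0.

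Eicosanoids are lipid signals made from arachidonic acid. A phospholipase A2 frees the fatty acid from membranes, after which lipoxygenases turn it toward leukotrienes and cyclooxygenases toward prostaglandins and thromboxane. Pla2g4c is a cytosolic phospholipase A2 that works without calcium. Alox5, arachidonate 5-lipoxygenase, makes the precursor of all leukotrienes, and Alox5ap, a membrane protein, presents arachidonic acid to it. Ptgs1, cyclooxygenase 1, is the constitutive enzyme of prostaglandin synthesis. In the mouse small intestine, tuft cells, which are chemosensory epithelial cells, express Alox5, Alox5ap and Ptgs1, and mast cells, macrophages and granulocytes also carry the lipoxygenase pair.

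The stretches before the transcription starts are shown as sequence for those of the 4 genes that have them. A link between these stretches and the difference between genotypes was not tested. RefSeq windows (GRCm38.p6) matched 3 of the 4 genes, with a pair of starts for Pla2g4c. Each line gives the 250 bases before a start, 5′ to 3′ on the gene's strand. The Pla2g4c windows are chr7:13325417-13325666 and chr7:13329072-13329321 (plus strand), that of Alox5 is chr6:116461179-116461428 (minus strand) and that of Ptgs1 is chr2:36230176-36230425 (plus strand). Capitals mark matches, on either strand, to the motifs named below.
Pla2g4c, first window: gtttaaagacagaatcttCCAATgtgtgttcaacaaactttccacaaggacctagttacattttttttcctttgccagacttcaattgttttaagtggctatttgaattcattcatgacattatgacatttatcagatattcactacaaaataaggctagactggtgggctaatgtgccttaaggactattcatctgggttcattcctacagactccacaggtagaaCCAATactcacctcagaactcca
Pla2g4c, second window: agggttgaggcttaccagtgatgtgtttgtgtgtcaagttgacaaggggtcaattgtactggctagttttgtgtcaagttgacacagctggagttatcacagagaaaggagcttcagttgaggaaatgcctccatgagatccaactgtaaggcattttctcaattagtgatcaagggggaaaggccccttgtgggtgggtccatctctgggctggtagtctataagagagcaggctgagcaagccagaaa
Alox5: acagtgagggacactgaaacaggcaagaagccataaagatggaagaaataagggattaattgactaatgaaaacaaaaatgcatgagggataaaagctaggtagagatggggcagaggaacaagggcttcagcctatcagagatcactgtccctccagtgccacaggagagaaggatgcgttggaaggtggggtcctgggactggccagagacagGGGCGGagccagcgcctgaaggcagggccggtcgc
Ptgs1: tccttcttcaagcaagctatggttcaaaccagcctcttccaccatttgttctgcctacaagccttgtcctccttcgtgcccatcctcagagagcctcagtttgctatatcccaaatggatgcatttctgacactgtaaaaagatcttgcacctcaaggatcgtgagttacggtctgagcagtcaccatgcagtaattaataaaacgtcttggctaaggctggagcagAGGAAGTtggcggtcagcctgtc

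The motifs were searched on both strands as fixed letters: the octamer ATGCAAAT, the ETS core AGGAAGT, the STAT site TTCNNNGAA, the GC box GGGCGG, the TATA box TATAAA and the CCAAT box CCAAT. None of these motifs overlapped another in the windows shown. The first Pla2g4c window held 2 CCAAT boxes, starting 232 and 23 bases before the start, and 33.8% of all 32851 windows of this length hold at least 1. Its second window held none of the motifs. The Alox5 window held 1 GC box, 35 bases before the start, which 32.7% of all windows hold. The Ptgs1 window held 1 ETS core, 23 bases before the start, which 7.69% of all windows hold. The octamer, the STAT site and the TATA box, present in 1.6%, 7.02% and 12.4% of all windows, were in none of the 4. No motif was shared between the windows of different genes. G and C made up 37.2% of the first Pla2g4c window, and 7.92% of all windows have as low a share or lower. The second Pla2g4c window had 47.6%, the Alox5 window 52.8% and the Ptgs1 window 48.0%, against a median of 52.4% over all windows.

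Pla2g4c had the widest difference of the 4. Its probe set (10550131, chromosome 7, 13911016 to 13945292, mm9) read 302, 1103 and 168 (linear intensity) on Nod2-/- replicates 1, 2 and 3, against 27.9, 30.4 and 40.0 on WT replicates 1, 2 and 3. All 3 Nod2-/- arrays lay above all 3 WT arrays, and the lowest Nod2-/- array was 4.21-fold above the highest WT array. On the log2 scale the means were 8.58 ± 1.39 in Nod2-/- and 5.02 ± 0.27 in WT (SD, n = 3 each), a difference of 3.56 with a standard error of 0.68, or 11.8-fold. Relative to the median of its own array, the level was 3.13, 4.96 and 2.27 log2 units higher on Nod2-/- replicates 1, 2 and 3. On WT replicates 1, 2 and 3 it was -0.33, -0.19 and 0.19 relative to that median. The gene lay above at least 88.0% of the probe sets on each Nod2-/- array, against 35.2% to 56.0% on the WT arrays. The Nod2-/- arrays were far apart among themselves, with replicate 2 at 6.55-fold the level of replicate 3, and 99.9% of all probe sets had a smaller SD among the Nod2-/- arrays. Without Nod2-/- replicate 2 the fold was 6.97, and without Nod2-/- replicate 3 it was 17.8. Among all 28853 probe sets, 2 had a larger positive difference. In a bulk capture, more cells that express a gene and more RNA per cell cannot be told apart, which holds for every gene below.

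**Figure D1:**
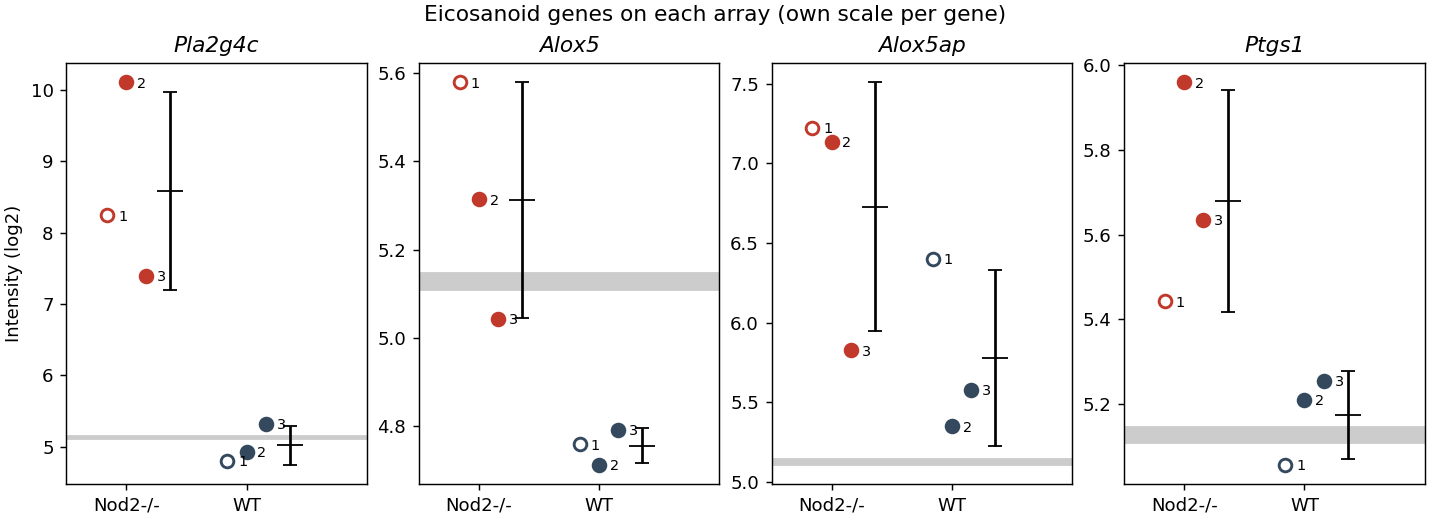
Log2 intensity of the 4 genes on each array, with Nod2-/- left and WT right in each panel, numbers for replicates, bars for mean ± SD (n = 3) and a grey band for the range of array medians. Open and filled points are arrays with different date-like numbers in their column names. The vertical scale differs between panels. The genotypes overlap for Alox5ap, where Nod2-/- replicate 3 (5.83) lies below WT replicate 1 (6.40), and not for the other genes.

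Alox5 was dim and differed little in absolute terms. Its probe set (10547153, chromosome 6, 116360089 to 116411196, mm9, minus strand) read 47.8, 39.8 and 33.0 on Nod2-/- replicates 1, 2 and 3, against 27.1, 26.2 and 27.7 on WT replicates 1, 2 and 3. The genotypes did not overlap, and the lowest Nod2-/- array was 1.19-fold above the highest WT array. Means were 5.31 ± 0.27 in Nod2-/- and 4.75 ± 0.04 in WT (log2, SD, n = 3 each), a difference of 0.56 with a standard error of 0.14, or 1.47-fold. The WT arrays lay within 0.08 log2 units of each other, below the array median by 0.34 to 0.40, at levels that 31.2% to 34.4% of probe sets fall under. In Nod2-/-, replicates 1 and 2 were above their array medians, by 0.47 and 0.17, and replicate 3 was at -0.08. A level below the array median may rest partly on background, which these values do not separate. The folds of Alox5, Pla2g4c and Ptgs1, each below it on at least 1 WT array, may thus be too low.

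Alox5ap was the one gene of the 4 whose genotypes overlapped. Its probe set (10527638, chromosome 5, 150076634 to 150099723, mm9) read 149, 140.5 and 56.8 on Nod2-/- replicates 1, 2 and 3, against 84.5, 40.8 and 47.8 on WT replicates 1, 2 and 3. Nod2-/- replicates 1 and 2 were above every WT array, whereas Nod2-/- replicate 3 was below WT replicate 1. Means were 6.73 ± 0.78 in Nod2-/- and 5.78 ± 0.55 in WT (log2, SD, n = 3 each), a difference of 0.95 with a standard error of 0.46, or 1.93-fold. Unlike Alox5, the gene lay above the array median on all 6 arrays, by 0.71 to 2.12 in Nod2-/- and by 0.24 to 1.27 in WT. Without Nod2-/- replicate 3 the difference was 1.40, and without Nod2-/- replicate 1 it was 0.70.

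Ptgs1 had the smallest difference. Its probe set (10471721, chromosome 2, 36085946 to 36107792, mm9) read 43.5, 62.2 and 49.7 on Nod2-/- replicates 1, 2 and 3, against 33.3, 37.0 and 38.2 on WT replicates 1, 2 and 3. The genotypes did not overlap, and the nearest arrays, Nod2-/- replicate 1 and WT replicate 3, were 1.14-fold apart. Means were 5.68 ± 0.26 in Nod2-/- and 5.17 ± 0.10 in WT (log2, SD, n = 3 each), a difference of 0.51 with a standard error of 0.14, or 1.42-fold. Relative to the array median, the level was between 0.33 and 0.81 in Nod2-/- and between -0.08 and 0.13 in WT.

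The array on which each gene was highest differed. Among the Nod2-/- arrays, Pla2g4c and Ptgs1 were highest on replicate 2, and Alox5 and Alox5ap on replicate 1. Replicate 3 was the lowest Nod2-/- array for Pla2g4c, Alox5 and Alox5ap, and replicate 1 was the lowest for Ptgs1. The lipoxygenase and its activating protein thus had the same order among the Nod2-/- arrays, but in WT Alox5ap was highest on replicate 1 and Alox5 on replicate 3. In 3 of the 4 genes all Nod2-/- arrays lay above all WT arrays, as they do in 3.42% of all probe sets. The genes were chosen on this contrast, so nothing is read from that share.

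The column names of the authors' annotated table hold a number in the form of a date, which is the same for both genotypes' replicate 1 and differs from that of replicates 2 and 3. The files do not state its meaning. For Pla2g4c the log2 difference was 3.44 between the arrays of the first number and 3.63 between those of the second. For Alox5 these were 0.82 and 0.43, for Alox5ap 0.82 and 1.02, and for Ptgs1 0.39 and 0.57. Within a number every Nod2-/- array was above every WT array for all 4 genes, Alox5ap included. For Pla2g4c, Alox5 and Ptgs1 this follows from their separation over all arrays. The share of all probe sets with this pattern was not counted, so nothing is read from it. Each value for the first number compares 1 array with 1 array and has no replicate.

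**Figure D2:**
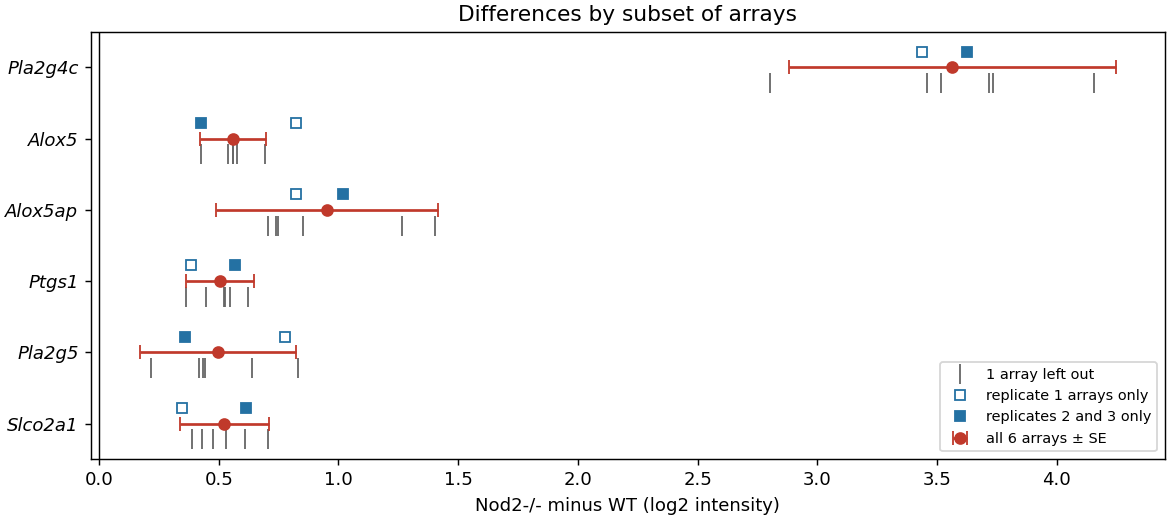
Nod2-/- minus WT in log2 intensity for the 4 genes, Pla2g5 and Slco2a1, as red points with the limma standard error for all 6 arrays, squares for the arrays of each date-like number, and ticks for each array left out. All values lie above 0. Those of Pla2g4c run from 2.80 to 4.16 with 1 array left out, and those of Alox5ap from 0.70 to 1.40.

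The pathway lists hold 84 genes, from phospholipases to receptors, and the 4 are among them. With limma over all 28853 probe sets, 0 (0.0%) had an adjusted p under 0.05 (Benjamini-Hochberg), the lowest adjusted p was 0.183, and 1106 had an unadjusted p under 0.05, or 3.83%. The unpaired test named in the authors' headers gave 0 after adjustment and 1043 before it. At least 0.41 log2 units of difference, the log of the fold threshold in the authors' headers, was reached by 2.12% of probe sets with Nod2-/- higher and by 1.24% with Nod2-/- lower. Of the 84 pathway genes, 6 were named past it with Nod2-/- higher and 0 with Nod2-/- lower. At least 0.58 was reached by 2 of them, Pla2g4c and Alox5ap, and by 0.738% of probe sets. Of the 80 without the 4 chosen genes, 2 were named, or 2.50%, beside 3.65% of all probe sets that have a place in the authors' table, and both averaged higher in Nod2-/-. The 2.50% is near the background. The 3.65% counts all 1053 probe sets of that table, of which only the 855 with a single symbol could be named. It is thus somewhat too high as a background for named genes, here and below, and so is the 2.26% given below.

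Pla2g5, a secreted phospholipase A2, was one of the pair. Its intensities were 7.18, 7.63 and 7.59 (log2) on Nod2-/- replicates 1, 2 and 3, against 6.41, 6.86 and 7.64 on WT replicates 1, 2 and 3. The genotypes overlapped, as WT replicate 3 was the highest of the 6 arrays. The log2 difference was 0.50 (standard error 0.33, adjusted p = 1.00 with limma), 0.22 without WT replicate 1 and 0.83 without WT replicate 3. Slco2a1, a membrane transporter that takes up prostaglandins, was the other. It had 6.44, 6.90 and 7.08 on Nod2-/- replicates 1, 2 and 3, against 6.10, 6.29 and 6.45 on WT replicates 1, 2 and 3. Nod2-/- replicate 1 lay just below WT replicate 3, and the other Nod2-/- arrays lay above all WT arrays. The log2 difference was 0.52 (standard error 0.19, adjusted p = 1.00 with limma).

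By role, the phospholipase A2 list had 2 of 21 genes named, Pla2g4c and Pla2g5, and the list of lipoxygenases and leukotriene synthesis had 2 of 15, Alox5 and Alox5ap. Ptgs1 was the 1 gene named of 12 in cyclooxygenase and prostanoid synthesis, and Slco2a1 the 1 of 10 in transport and breakdown. Of the 15 eicosanoid receptors and the 11 genes of arachidonate supply, 0 were named. The inducible cyclooxygenase Ptgs2, the leukotriene synthases Lta4h and Ltc4s, and Hpgds, which makes prostaglandin D2, were thus not among the named probe sets. A gene with no name here either differed by less than the authors' thresholds or was not measured under its symbol, and its level was not analysed.

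**Figure D3:**
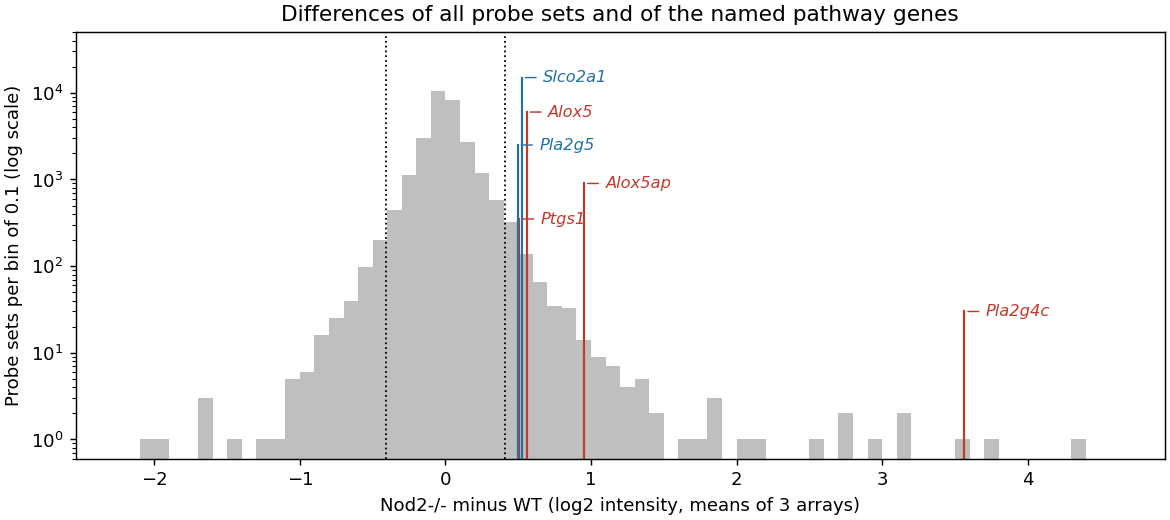
Number of probe sets (log scale) by Nod2-/- minus WT in log2 intensity, for all 28853 probe sets in grey, with dotted lines at 0.41 and -0.41. Red lines mark the 4 genes and blue lines the other pathway genes with a name. Pla2g4c, at 3.56, stands in the far right tail, and the other 5 lie between 0.50 and 0.95.

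Tuft cell genes outside the eicosanoid pathway were also higher on average in Nod2-/-. Of 33 such genes, 10 were named (30.3%, beside 3.65% of all probe sets), and all 10 had a higher mean in Nod2-/- (2.26% of all probe sets have a place in the table with Nod2-/- higher). The median of their log2 differences was 0.56, beside -0.01 over all probe sets. These 10 carry names because they differed, so the median describes them only. None passed limma's adjusted threshold over all probe sets (adjusted p = 1.00 for all 10). Of the 10, 6 had an unadjusted p under 0.05 with limma, beside 3.83% of all probe sets. The 10 were named for this same contrast, so nothing is read from that count. Pou2f3, the transcription factor that tuft cells need to form, was 1.56-fold higher, and Trpm5, their taste-signalling channel, was 1.49-fold higher. Rgs13 and Sh2d6 were 2.74-fold and 1.89-fold higher, Avil, an actin-binding protein, 1.46-fold and the kinase Dclk1 1.45-fold. Spib, a transcription factor that Paneth cells also express, Nrep, Vav1 and Plcb2, a phospholipase C of taste signalling, were between 1.26-fold and 1.96-fold higher. The genotypes overlapped for Rgs13, Sh2d6, Dclk1 and Spib, and not for the other 6. Of all probe sets, 3.42% have all Nod2-/- arrays above all WT arrays. Since the 10 were named for this contrast, nothing is read from the 6 beside that share either. Rgs13 differed by 3.365 log2 units between the replicate 1 arrays and by 0.50 between those of replicates 2 and 3. The summed intensity of the 10 was between 537 and 998 in Nod2-/- and between 383 and 498 in WT.

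Array by array, the tuft cell genes had the order of the lipoxygenase pair among the Nod2-/- arrays. Their mean log2 intensity was 6.41, 6.17 and 5.64 on Nod2-/- replicates 1, 2 and 3, against 5.19, 5.50 and 5.47 on WT replicates 1, 2 and 3. Nod2-/- replicate 1 was the highest Nod2-/- array for 8 of the 10 genes and replicate 3 the lowest for 9 of the 10. In WT the orders parted, since the tuft cell mean was lowest on replicate 1, where Alox5ap was at its WT highest. The median difference was 0.99 between the arrays of the first date-like number and 0.45 between those of the second. Alox5 also had its larger difference in the first, whereas Pla2g4c, Alox5ap and Ptgs1 had their smaller one there. The part of tuft cell number in the values of the 4 genes was not tested.

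**Figure D4:**
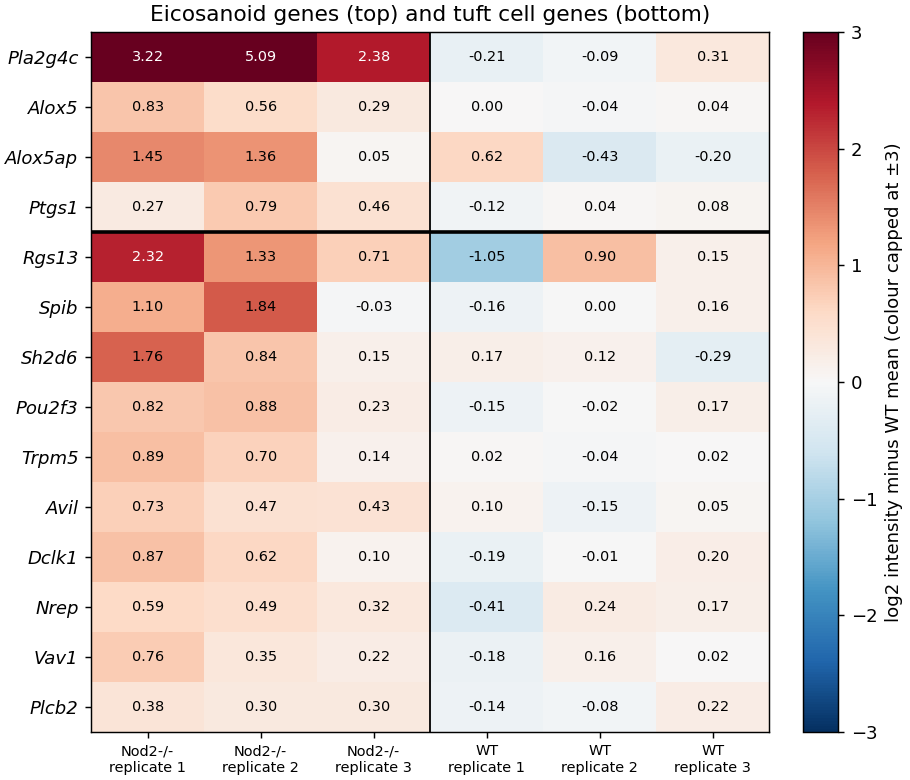
Log2 intensity minus the WT mean of the same gene, for the 4 eicosanoid genes (above the line) and the 10 named tuft cell genes (below it) on the 3 Nod2-/- arrays (left) and the 3 WT arrays (right). Colour is capped at 3 in either direction. Nod2-/- replicate 3 is the palest Nod2-/- column for most rows, and WT replicate 1 is raised for Alox5ap.

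Genes of other cells that can make eicosanoids were partly named. The counts stand beside 3.65% of all probe sets with a place in the authors' table, and 2.26% there with Nod2-/- higher. Of 14 mast cell genes, 3 were named, all higher on average in Nod2-/-: the proteases Mcpt1 (2.53-fold) and Mcpt2 (1.98-fold) and the receptor Kit (1.49-fold), which Paneth cells also carry. Their summed intensity was between 376 and 664 in Nod2-/- and between 274 and 290 in WT. In WT, Kit was at 7.79 to 7.90 (log2) and the proteases at 4.59 to 4.84, so the WT sum is mostly Kit. On Nod2-/- replicate 2, Kit was at 8.30 and Mcpt1 and Mcpt2 at 4.92 and 4.89. The sum is thus not one of mast cells alone. Both proteases were highest on Nod2-/- replicate 3, at 7.56 and 7.38 (log2), the array on which Pla2g4c, Alox5 and Alox5ap had their lowest Nod2-/- values, and without it their log2 differences were 0.54 and 0.13. Of 18 macrophage and monocyte genes, 4 were named and higher on average, among them Ms4a7 (1.54-fold, limma adjusted p = 0.748), Fcer1g (1.47-fold) and C1qc (1.43-fold), with a summed intensity of 408 to 666 in Nod2-/- and 216 to 584 in WT. Without WT replicate 1 the log2 difference of C1qc was 0.00, that of Fcer1g 0.22 and that of Tyrobp, the remaining gene of the 4, -0.07. Of 12 granulocyte genes 1 was named, Retnlg, at 53.6 to 84.2 in Nod2-/- and 28.0 to 47.2 in WT. Of 6 genes of all leukocytes 1 was named, Cd52, at 125 to 145 in Nod2-/- and 38.9 to 242 in WT (log2 difference -0.26 without WT replicate 1), and of 6 platelet genes 0 were named. The part of these cells in the values of the 4 genes was not tested, and apart from Ms4a7 the limma adjusted p of the genes named in this paragraph was 1.00.

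Outside the blood lineages, beside the same 3.65% and 2.26% of all probe sets, 1 of 7 endothelial genes was named, Emcn, at 34.3 to 56.4 in Nod2-/- and 27.5 to 32.2 in WT. Of 13 fibroblast and smooth muscle genes 5 were named (38.5%), all higher on average in Nod2-/-, with a summed intensity of 1565 to 2174 in Nod2-/- and 819 to 1322 in WT, led by Fn1 (2.02-fold), Bgn (1.69-fold) and Lum (1.67-fold). Epithelial lists went both ways. The 2 named Paneth cell genes were higher on average (Mptx1 4.53-fold, Pnliprp2 1.70-fold), with sums of 3464 to 7270 in Nod2-/- and 1922 to 4407 in WT. Pnliprp2 lay at 10.83 to 12.67 (log2) and Mptx1 at 6.24 to 9.58, so the sum is mostly Pnliprp2. For Pnliprp2 the genotypes overlapped, as WT replicate 1 (12.08) was above Nod2-/- replicate 3 (11.67). Of 8 goblet cell genes 5 were named (62.5%), 3 higher and 2 lower, led by Retnlb (13.3-fold higher), Clca1 (4.09-fold higher) and Zg16 (3.89-fold lower), with sums of 3527 to 4946 in Nod2-/- and 1982 to 4168 in WT. Leaving out 1 array moved the fold of Retnlb to between 8.38 (WT replicate 1) and 20.4 (WT replicate 2). For Zg16 it gave between 2.57-fold (WT replicate 1) and 7.53-fold lower (WT replicate 3), and the genotypes overlapped, as WT replicate 3 had 4.92 (log2). The 3 named of 7 stem cell genes (Rgmb, Lgr5 and Tnfrsf19, 1.34-fold to 1.40-fold) and the 3 named of 8 enterocyte genes (Fabp6, Anpep and Fabp2, 1.34-fold to 1.71-fold) were lower on average in Nod2-/-. Without Nod2-/- replicate 2, however, Lgr5 was 1.01-fold higher and the log2 difference of Anpep was -0.007, and the fold of Fabp6 was 1.07 once WT replicate 1 was left out. Sums were 414 to 871 in Nod2-/- and 701 to 1217 in WT for the stem cell genes, and 534 to 861 in Nod2-/- and 826 to 1376 in WT for the enterocyte genes. The limma adjusted p of each gene named here was 1.00, and the part of these cells in the 4 genes' values was not tested.

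The named genes whose values were most like those of each eicosanoid gene differed between the 4. Likeness was Pearson's r of log2 intensity over the 6 arrays, against 743 other named genes, and 5 were taken for each. The arrays share the genotype split and the named genes were kept for that split, so high values are built in and no test is given. A second value, r of the deviations from the genotype means, leaves the split out but rests on the same 6 arrays.

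Among the nearest to Pla2g4c were Spdef, a transcription factor of goblet cells (r = 0.987, deviations 0.951), Capn13, a calpain (0.984, deviations 0.942), Myadm and Wtip. Spdef had 8.56, 8.75 and 8.50 (log2) on Nod2-/- replicates 1, 2 and 3, against 8.15, 8.10 and 8.13 on WT replicates 1, 2 and 3. Both genes were thus highest on Nod2-/- replicate 2 and lowest, among Nod2-/- arrays, on replicate 3, although Spdef differed 1.39-fold between the genotypes and Pla2g4c 11.8-fold. No tuft cell gene was among those shown. With the mean of the 10 named tuft cell genes, r was 0.859 for Pla2g4c (deviations 0.498) and 0.958 for Alox5 (deviations 0.876). For Alox5ap it was 0.748 (deviations 0.494) and for Ptgs1 0.684 (deviations 0.003). The genotype split is built into the first value of each.

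Nearest to Alox5 were Poglut2 (r = 0.987, deviations 0.945), Strip2 (0.986, deviations 0.959), Mptx1, a mucosal pentraxin (0.979, deviations 0.908), Kit (0.976, deviations 0.896) and Trpm5 (0.975, deviations 0.961). Trpm5, the 1 tuft cell gene among them, had 6.09, 5.90 and 5.34 (log2) on Nod2-/- replicates 1, 2 and 3, against 5.23, 5.16 and 5.22 on WT replicates 1, 2 and 3. As for Alox5, the Nod2-/- arrays stood apart from each other while the WT arrays lay close together.

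Nearest to Alox5ap were Pnliprp1, a lipase of pancreatic type (r = 0.987, deviations 0.993), Reg4, a secreted lectin (0.977, deviations 0.960), Pnliprp2, another lipase of that type (0.954, deviations 0.923), Clps, the colipase that assists such lipases (0.954, deviations 0.929), and Mmadhc. Pnliprp1 had 7.09, 6.78 and 5.47 (log2) on Nod2-/- replicates 1, 2 and 3, against 5.74, 4.72 and 4.91 on WT replicates 1, 2 and 3. Like Alox5ap, it was raised on WT replicate 1, above Nod2-/- replicate 3.

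Nearest to Ptgs1 were Col12a1, a collagen (r = 0.991, deviations 0.968), Rgs5, known from pericytes (0.977, deviations 0.955), Emcn, known from endothelium (0.977, deviations 0.988), Dusp1, a phosphatase (0.975, deviations 0.954), and Celf1. Rgs5 had 8.71, 10.22 and 9.28 (log2) on Nod2-/- replicates 1, 2 and 3, against 7.42, 8.45 and 8.36 on WT replicates 1, 2 and 3. Its Nod2-/- replicate 2 was the highest array and WT replicate 1 the lowest, as for Ptgs1. No gene shown was among the nearest 5 of more than 1 of the 4.

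**Figure D5:**
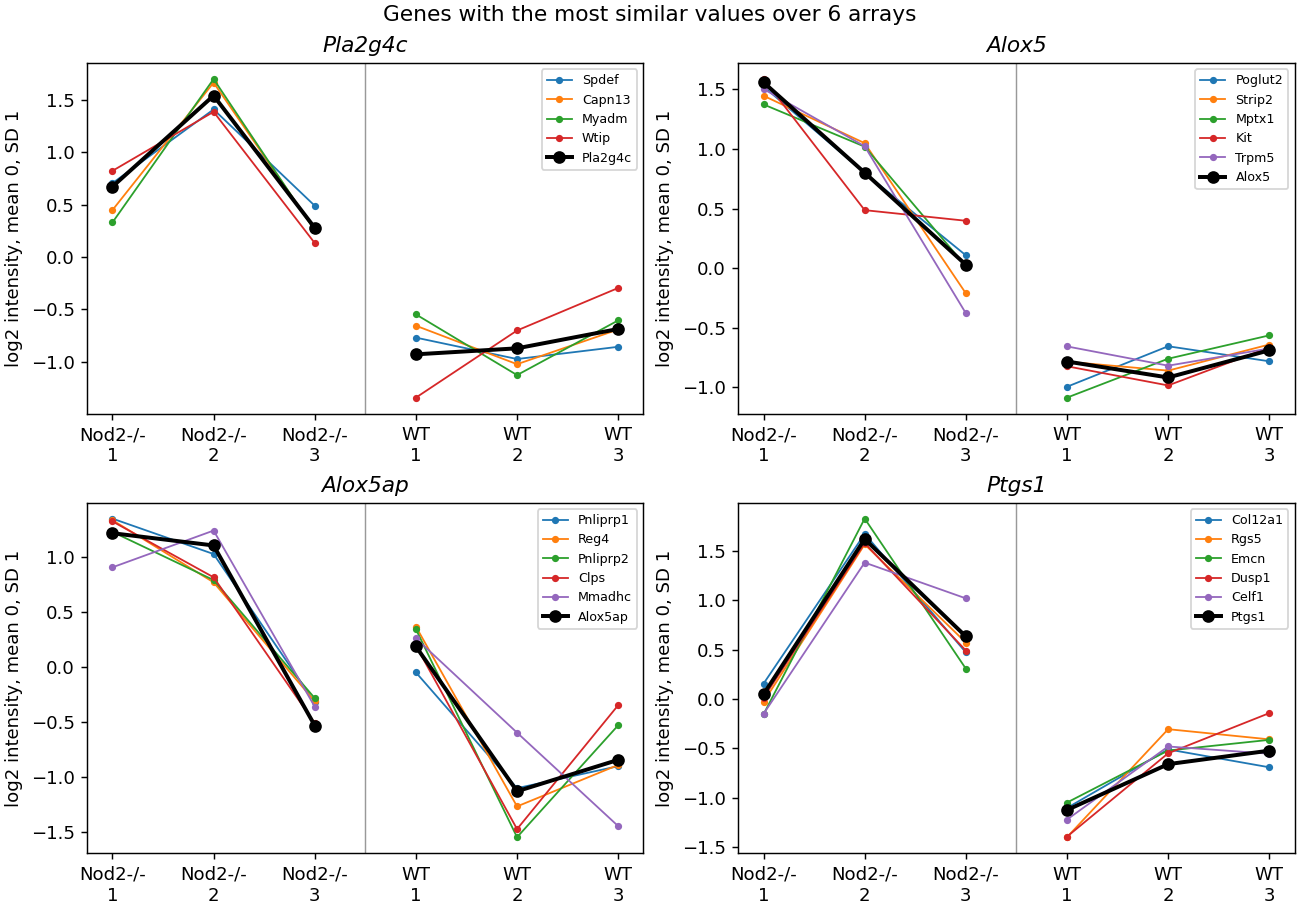
Values of each eicosanoid gene (black) and of its nearest named genes (colours; 4 for Pla2g4c and 5 for each other gene) on the 3 Nod2-/- arrays (left of the line) and the 3 WT arrays (right), each scaled to mean 0 and SD 1 over the 6 arrays. Pla2g4c and Ptgs1 peak on Nod2-/- replicate 2, Alox5 and Alox5ap on Nod2-/- replicate 1, and WT replicate 1 is the highest WT array for Alox5ap.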

How the data were processed

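Total RNA of 6 laser captures, 3 per genotype, was hybridised to 1-colour arrays. The deposited table holds an intensity per probe set and array on a linear scale. Per the submitters' processing notes it comes from RMA. Which RMA program and options were used is not given in the sources used here. In addition, the authors' annotated table holds 1053 of the probe sets, on mm9 per the file headers. Its intensity columns equalled the value table in all 1053 (relative tolerance 0.001), and it held exactly those probe sets with a fold of at least 1.33, or with p of 0.05 or less and a fold of at least 1.25. Its further deposited columns (ratio to the WT median, log2 minus the WT median, signed fold score, p-value without adjustment) are the authors' and none is printed.

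Log2 intensities of all 28853 probe sets were fitted with limma 3.58.1 in R 4.3.3 (lmFit, eBayes, genotype as the only term, no filter, Benjamini-Hochberg). The fit was tested on simulated data. Symbols were updated by Entrez number through RefSeq (GRCm38.p6), in which 800 of 855 matched. Where a gene had several probe sets the brightest stands for it. The 4 genes, the lists and the tests were chosen with earlier results of these data known. The rule for named genes took the 4 genes, every named pathway and tuft cell gene, up to 3 by size from each other list, and the 5 most alike of each of the 4, of which 1 is not reported here. Alternatives were each array left out, the replicate number or the date-like number as a block, arrays centred on their median, medians for means, other limma settings and the authors' unpaired test. The number of arrays limits the precision, and signal over background was not used here.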

Additional observations from a re-analysis of the deposited data

How the results depend on the processing

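All 4 genes were higher in Nod2-/- under each of the 12 alternatives run for them (48 of 48 values). They were chosen on this contrast, and with balanced arrays a block cannot change a difference. For Pla2g4c, Alox5 and Ptgs1, whose genotypes did not overlap, leaving out an array could not reverse the sign. The count therefore describes the genes and adds no support. With 1 array left out the log2 difference ranged from 2.80 to 4.16 for Pla2g4c, 0.43 to 0.69 for Alox5, 0.70 to 1.40 for Alox5ap and 0.37 to 0.62 for Ptgs1. That of Alox5 was 0.82 on the arrays of replicate 1 alone. Of the 6 named pathway genes past 0.41, 2 were past 0.58, Pla2g4c and Alox5ap, and with 1 array left out 5 to 6 were past 0.41. Only named genes could be counted, and the names came from a filter on this contrast, so the count could not exceed 6. The count of probe sets with limma adjusted p under 0.05 was 0 and became 3 with a trended and robust prior, 3 with dim probe sets left out and 0 to 2 with 1 array left out. It was 0 with the date-like number as a block, with centred arrays, with the authors' unpaired test and, chosen after seeing the data, within replicates 2 and 3. With the replicate number as a block it was 0 (lowest adjusted p 0.969). With balanced arrays such a block leaves every difference unchanged, so all 4 differences and the 6 pathway genes past 0.41 stayed the same. Same-numbered arrays did not deviate together throughout (r of deviations 0.201, -0.022 and 0.061 for replicates 1, 2 and 3, across probe sets), so the numbers are not taken to pair the arrays. Between Nod2-/- and WT arrays that differ in the date-like number, r was negative in every pair, from -0.199 to -0.039. The remaining pairs, of replicates 2 and 3, had 0.075 and 0.158. Whether arrays group by that number was not tested. Intensities below the array median limit what a fold can show. In WT these were Alox5 on all arrays, Pla2g4c on replicates 1 and 2, and Ptgs1 on replicate 1.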
